A study of Mus musculus with 614 samples.

Results

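Cytosolic ribosomal protein genes were followed in single mouse blood cell progenitors. The members were all rows of the deposited TPM table whose symbol starts with Rpl or Rps and a number, together with Rpsa, Rplp0, Rplp1 and Rplp2; rows with -ps (named pseudogenes), ribosomal S6 kinases and symbols ending in rt were left out. The rule found 90 of 43280 rows, 49 for the large subunit, 3 for its stalk and 38 for the small subunit, and it used no measured value. TPM, the transcript share unit of the table, divides a gene's reads by its length and scales each cell to the same total, so levels can be compared between genes. The label fits most rows but not all. Rps19bp1 matched the pattern although it encodes a protein that binds Rps19 and is not itself a ribosomal protein, and the annotation (GENCODE M21) lists Rps12l1, Rps3a2, Rps3a3 and Rps4l as processed pseudogenes. Rps12l2 was not found in that annotation.

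A ribosome is built from ribosomal RNA and about equal numbers of each ribosomal protein, so the cell makes these proteins in step. Their mRNAs are short and abundant and start with a run of pyrimidines, the terminal oligopyrimidine or TOP motif, through which growth signals control their translation. Blood progenitors are sensitive to the supply of ribosomal proteins, and loss of 1 copy of RPS19 is a known cause of Diamond-Blackfan anaemia in humans. Because these mRNAs are so abundant, the mouse genome also holds many reverse-transcribed copies of them, which matter for reading the values here.

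The study asked which progenitors give rise to plasmacytoid dendritic cells (pDC). It sorted untreated cells from adult C57BL/6J mice of 7 to 10 weeks and captured 614 of them on microfluidic circuits, with oligo(dT)-primed cDNA. From bone marrow came lymphoid-primed multipotent progenitors (LMPP, 65 cells), sorted as Lin-, CD127-, c-Kit+, Sca-1+ and CD34+ with intermediate CD16/32. Granulocyte-macrophage progenitors (GMP, 51 cells) were Lin-, Sca-1-, c-Kit+ and CD34+ with high CD16/32. Common lymphoid progenitors (CLP, 48 cells) were Lin-, Thy-1-, CD127+, Flt3+ and CD34+ with low c-Kit and Sca-1. Common monocyte progenitors (cMoP, 66 cells) were Lin-, Flt3-, CD11b-, c-Kit+ and CD115+ with high Ly6C. Common dendritic cell progenitors (CDP, 58 cells) were Lin-, MHCII-, CD11c-, CD115-, IL7R- and Flt3+ with intermediate c-Kit. The gate for pDC (27 cells) was Lin-, SiglecH+ and B220+. Pre-pro-B cells (30 cells) were Lin-, B220+, Flt3+, CD93+, CD43+, IL7R+ and CXCR4+ with low CD24 and CD117. Dendritic cell precursors (pre-DC) were Lin-, MHCII-, B220-, CD172α-, Flt3+ and CD11c+. Marrow pre-DC were split by SiglecH and Ly6C into SiglecH+Ly6C+ (45 cells), SiglecH-Ly6C+ (68 cells), SiglecH-Ly6C- (70 cells) and SiglecH+Ly6C- (70 cells), and blood pre-DC (16 cells) were not split. Red cells were lysed, progenitors were enriched on magnetic beads, and only cells that gave good cDNA were sequenced. The labels tie no cell to an animal or a pool. Each gate was therefore 1 sample, no test between gates was possible, and every SD is over cells.

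Several facts of the series touch all values. The library numbers fall into 9 runs. CLP, GMP and pre-pro-B share a run, CDP share a run with 24 of the 27 pDC, and SiglecH+Ly6C- pre-DC are split over 2 runs (51 and 19 cells), each shared with another pre-DC gate; what a run was in the laboratory is not given. The LMPP, the cMoP, the blood pre-DC and the SiglecH-Ly6C+ pre-DC fill 1 run each, and for them gate and run cannot be told apart. Read depth is unknown from TPM; the number of genes reaching 1 TPM stands in for it here, with a median of 4517.5 per cell and a highest value of 9977. In 8 cells (5 cMoP, 2 blood pre-DC and 1 pDC) mitochondrial genes held over 30% of the TPM. Of the markers listed for each gate, 5 of 5 were seen in at least 50% of GMP and of cMoP, 6 of 6 in pDC, 4 of 5 in LMPP and in CLP, 3 of 5 in CDP, and 3 or 4 of 6 in the remaining gates. Zbtb46 stayed below 50% of cells in every pre-DC gate, and the B-lineage genes Ebf1, Cd79a and Cd79b stayed below it in pre-pro-B. No erythroid, platelet, NK cell or neutrophil marker reached 50% of the cells of any gate, and 1 of 4 T cell markers did so in SiglecH+Ly6C- pre-DC. Among 4 macrophage markers up to 3 passed it in 4 gates, at summed medians of at most 6.13 TPM, and 1 of 3 plasma cell markers in 7 gates, at up to 412 TPM in pre-pro-B. The part of such cells in the results below was not tested.

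Some members share long stretches with their copies, and the first 60 coding bases of a few members show how alike or unlike such rows can be (GENCODE M21, GRCm38; capitals mark bases that differ from the first line of each group). Rps12, a small-subunit protein gene on chromosome 10 (23785183 to 23787275, minus strand), is identical over this stretch to Rps12l1 on chromosome 7 (56014016 to 56014414) and to Rps12-ps9, and both of these are processed pseudogenes.
Rps12: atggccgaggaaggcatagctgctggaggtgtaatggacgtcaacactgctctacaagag
Rps12l1: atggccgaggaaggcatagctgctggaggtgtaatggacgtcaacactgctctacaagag
Rps12-ps9: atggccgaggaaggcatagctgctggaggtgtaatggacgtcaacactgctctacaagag
Rpl5, whose protein forms a particle with Rpl11 and 5S ribosomal RNA, lies on chromosome 5 (107900502 to 107909005) and matches the transcribed pseudogene Gm15500 on chromosome 7 (114705217 to 114706235, minus strand) in all 60 bases, and Rpl5-ps1 in 59.
Rpl5: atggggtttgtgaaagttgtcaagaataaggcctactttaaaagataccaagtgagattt
Gm15500: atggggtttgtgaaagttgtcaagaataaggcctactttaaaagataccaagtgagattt
Rpl5-ps1: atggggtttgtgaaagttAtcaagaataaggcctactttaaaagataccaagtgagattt
The protein-coding paralogues are more distant. Rps27l on chromosome 9 (66946086 to 66949516) differs from Rps27 on chromosome 3 (90212522 to 90213651) at 18 of these 60 bases, and the coding sequences, of 255 bases each, are 76.1% identical.
Rps27: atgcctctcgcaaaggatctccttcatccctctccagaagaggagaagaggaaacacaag
Rps27l: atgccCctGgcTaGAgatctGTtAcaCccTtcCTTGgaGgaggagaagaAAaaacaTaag
Rpl22l1 on chromosome 3 (28805436 to 28807424), the paralogue of Rpl22 on chromosome 4 (152325742 to 152334071), differs from it at 34 of 60 bases.
Rpl22: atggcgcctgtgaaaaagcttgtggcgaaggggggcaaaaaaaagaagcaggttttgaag
Rpl22l1: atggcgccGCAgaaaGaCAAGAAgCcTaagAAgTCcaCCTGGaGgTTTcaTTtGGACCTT
Rpl36al on chromosome 12 (69182731 to 69184083) differs from the X-linked Rpl36a (134585654 to 134588062) at 11 of 60 bases, and 282 of their 321 coding bases are the same.
Rpl36a: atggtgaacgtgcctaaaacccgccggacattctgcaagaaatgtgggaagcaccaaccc
Rpl36al: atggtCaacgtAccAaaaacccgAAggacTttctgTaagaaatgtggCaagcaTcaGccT
Across 89 members in the annotation, a median of 45.5% of the 31-base words of a member's transcripts also occurred in transcripts of other genes, and 38 members had 50% or more. For Rps12 the figure was 69.6% and for Rpl5 86.4%, so each also has words of its own. The median was 35.9% for 15 other genes with TOP mRNAs and 3.70% for 21 ribosome biogenesis genes.

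RefSeq start sites (GRCm38.p6) give a view of the TOP motif. Of 65 members in the promoter table, 49.2% had a run of at least 6 bases made only of C and T on the transcript strand within 10 bases of an annotated start, against 6195 of 26960 other genes (22.98%) and 3 of 9 other TOP mRNA genes; the other 25 members are not in that table. The start windows of 3 members, 15 bases before and 15 after the start, show in capitals the longest such run inside the 10 bases on either side, where a run may go on beyond that limit. They are Rps18 (chr17:33955651-33955680, minus strand), Rpl22l1 (chr3:28805493-28805522) and Rps2 (chr17:24720048-24720077).
Rps18: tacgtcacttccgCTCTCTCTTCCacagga
Rpl22l1: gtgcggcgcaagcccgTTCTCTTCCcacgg
Rps2: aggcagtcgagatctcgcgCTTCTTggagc
All 3 windows shown hold a run of at least 6 bases, and not every member does. In other windows examined the longest run was 7 bases in Rps27l, 4 in Rps19 and 3 in Rpl41 and Rps19bp1. An annotated start can lie some bases from the start used in these cells, and a missing run says nothing about the mRNA.

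The 90 rows together held 16.2% of a cell's TPM in LMPP as a median (lowest cell 12.3%, highest 25.5%, SD 2.45). In CDP the median was 11.6% (5.74 to 24.96%, SD 3.13) and in CLP 11.4% (5.82 to 15.5%, SD 2.07). The next gates were SiglecH-Ly6C+ pre-DC at 10.1% (SD 2.29), blood pre-DC at 10.1% (SD 4.04), cMoP at 9.76% (SD 2.71), SiglecH-Ly6C- pre-DC at 9.29% (SD 1.99), SiglecH+Ly6C+ pre-DC at 8.91% (SD 2.21) and GMP at 8.88% (SD 1.65). Pre-pro-B cells at 8.02% (SD 2.05), SiglecH+Ly6C- pre-DC at 7.84% (SD 2.18) and pDC at 7.31% (0.636 to 12.5%, SD 2.04) were lowest. Between neighbours in this order, the gap from LMPP to CDP was 1.63 times the SD over cells, and all other gaps were at most 0.56 times it. LMPP has no run in common with another gate, so its high share and its run cannot be told apart. SiglecH+Ly6C- pre-DC had 7.80% in the run of 51 cells and 8.24% in the run of 19. TPM are shares of a cell's total, so a higher share can also reflect less of other RNA. The 8 cells rich in mitochondrial TPM had shares of 0.305 and 0.587% in blood pre-DC, 0.636% in pDC and 1.17 to 3.63% in cMoP, while the lowest shares of the other cells there were 6.89, 4.85 and 2.71%. Without these 8 cells LMPP and CDP still had the highest medians and pDC the lowest.

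**Figure D1:**
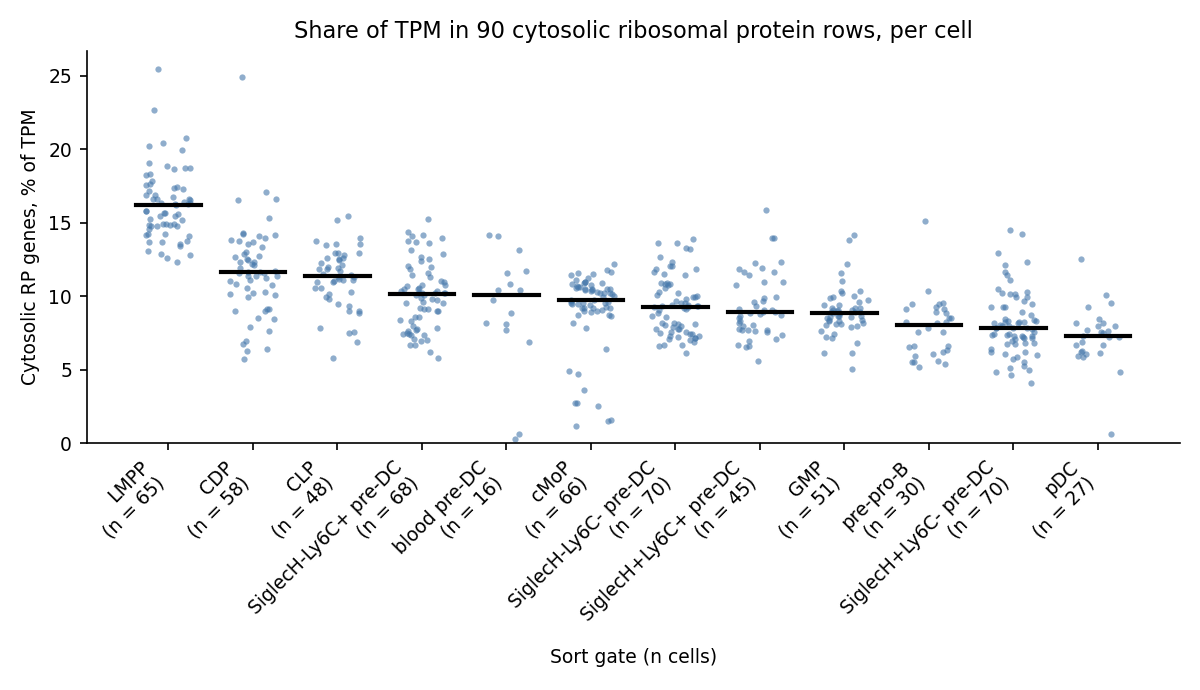
Percent of TPM in the 90 ribosomal protein rows (vertical axis) for each cell (points) by sort gate, ordered by the median (black lines). LMPP lie between 12.3 and 25.5%, and all other gates have medians from 7.31 to 11.6%.

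Within a gate, Spearman's rho between the share and the genes at 1 TPM or more ran from -0.57 in SiglecH-Ly6C- pre-DC to 0.10 in cMoP, and with the mitochondrial percentage from -0.65 in cMoP to 0.26 in CLP. These are descriptions over cells of 1 sample, and share and mitochondrial percentage have the same total. Small-subunit rows had 0.856 times the TPM of large-subunit and stalk rows in the median cell, and the gate medians of this ratio lay between 0.807 in cMoP and 0.929 in SiglecH+Ly6C+ pre-DC (SD over all cells 0.127). The stalk proteins Rplp0, Rplp1 and Rplp2, which recruit elongation factors, held 0.839% of TPM in LMPP (SD 0.221) and 0.385% in pre-pro-B (SD 0.122).

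Among the highest rows were Rps19, Rps18, Rpl32, Rpl41 and Rps14, and 21 members held 50% of all member TPM. Rps19, a small-subunit protein needed to mature 18S ribosomal RNA, had gate medians from 1840 TPM in pre-pro-B to 6131 in CDP. Its cells ranged from 3013 to 9793 TPM in LMPP and from 702 to 3946.5 in pre-pro-B, so the gates overlap between 3013 and 3946.5 TPM. Rpl41, the shortest ribosomal protein, ran from 1887 TPM in pDC to 4100 in LMPP by gate median. Rps14, a small-subunit protein whose loss is linked to the anaemia of the 5q- syndrome, had its highest median in LMPP (4654 TPM) and its lowest in GMP (2064 TPM).

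Among the stalk genes Rplp0 was highest in cMoP (3666 TPM) and CDP (3536 TPM) and lowest in pre-pro-B (972.9 TPM), whereas Rplp1 had 2322 TPM in LMPP, 1555 in pre-pro-B and 656.2 in SiglecH-Ly6C+ pre-DC. Rpl11, which joins Rpl5 in the 5S particle and can bind Mdm2, ran from 244.9 TPM in pDC to 930 in LMPP. Rpsa, the small-subunit protein also called laminin receptor, ran from 462.2 TPM in pDC to 1765 in LMPP. Rpl38, known for its part in translating Hox mRNAs, ran from 269.8 TPM in SiglecH+Ly6C- pre-DC to 1113 in LMPP, and GMP had 982.5 TPM. With its copy rows added Rpl38 had 1572 TPM in LMPP and 1586 in GMP. Rpl24 and Rps25 were also highest in LMPP, at 1522 and 2110 TPM, as were Rpl9 at 5093 and Rps3a1 at 3857 TPM. Rpl3, at the peptidyl transferase centre, had 4167 TPM in LMPP and 760 in pre-pro-B, and Rps4x, the X-linked form, had 2552 TPM in LMPP and 711 in pDC. The 71 members between the highest 6 and the lowest 6 that were seen had mean gate medians from 122 to 2575 TPM.

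Of the 90 members, 83 reached 1 TPM in 20% of all cells or more, and 76 did so in 90% or more. The 7 others had a median of 0 in every gate. They were the paralogues Rpl10l (3 cells), Rpl39l (6 cells) and Rpl3l (11 cells), which are known from testis or muscle, and Rps12l2 (22 cells), Rps3a3 (54 cells), Rps3a2 (109 cells) and Rps4l (111 cells); Rps12l2, Rps3a2 and Rps3a3 are named because their values were seen. A median of 82 of the 83 was seen per cell in GMP and in cMoP, and of 77 in pDC (lowest 45, highest 81). Among the 83, the mean of log2(TPM + 1) over cells was highest in LMPP for 57, in GMP for 10 and in CDP for 7. It was lowest in pDC for 34, in blood pre-DC for 28 and in pre-pro-B for 11. Without the 8 cells over 30% mitochondrial TPM it was lowest in pDC for 36, in pre-pro-B for 19 and in blood pre-DC for 6, so the blood count rested on 2 of 16 cells, while LMPP was highest for 54. Such counts were not made over all genes, so they do not tell the members from other genes. LMPP fill a run of their own, and for them gate and run cannot be told apart. The blood median of Rpl26, 2188 TPM, was below that of LMPP (2342 TPM) and above those of the other gates. Cell by cell, members had a median pairwise Spearman's rho between 0.083 in SiglecH-Ly6C- pre-DC and 0.356 in cMoP.

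For each pair of cell sets log2(TPM + 1) was averaged over the cells of a set, and the second average was taken from the first. Genes entered when 20% of either set's cells reached 1 TPM, and a gene was counted when the difference was 1 or more in size, which is 2-fold on this scale. A low member can enter through the set where it is high, and its count then says little. With 1 sample per gate these counts are descriptions. The share of all genes past the same fold is given beside each count made this way. The comparisons that share CLP, GMP, CDP or the SiglecH+Ly6C- cells are not independent of each other.

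By the mean of log2(TPM + 1) the ribosomal protein genes of GMP were level with CLP, while most other genes were higher. Their share of TPM was lower, at 8.88% in GMP (SD 1.65) and 11.4% in CLP (SD 2.07), a ratio of 0.782. The median difference was -0.04 for 84 members and 1.22 for 8694 genes; 6 members were 2-fold or more higher and 0 lower, against 58.7% and 2.52% of all genes. The 6 were Rpl7l1, Rps19bp1, Rpl12, Rps12, Rpl5 and Rps4l, which are the 5 lowest rows of those seen in 20% of all cells together with a pseudogene row. With copy rows added Rps12 was higher by 0.64 and Rpl5 by 0.86, under 2-fold. Genes per cell differed as well, with medians of 5792 in GMP and 3280 in CLP. The member farthest above the rest was Rpl7l1, a nucleolar paralogue of Rpl7, higher by 2.73 with median levels of 73.5 TPM in GMP and 0.76 TPM in CLP. Rps19bp1 was higher by 1.87, at a median of 39.5 TPM in GMP and 0 in CLP; it was seen in 74.5% of GMP (exact 95% interval 60.4 to 85.7%) and 39.6% of CLP (25.8 to 54.7%) and the intervals cover counting error only. Of 78 mitochondrial ribosomal protein genes compared, 73 were 2-fold or more higher in GMP and 0 lower, and of 21 ribosome biogenesis genes 20 were higher. All 12 S phase and all 12 G2/M genes listed were also 2-fold or more higher in GMP; their part in the difference was not tested. With log2 of the mean TPM in place of the mean of log2, 0 members and 21.6% of all genes were higher, with medians of -0.27 and 0.20.

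Pre-pro-B cells had lower ribosomal protein levels than CLP of the same run. The median difference was -0.59 for 84 members and 0.14 for all genes, with similar genes per cell (medians 3316 and 3280). All 12 G2/M genes listed were 2-fold or more higher in pre-pro-B, which was not tested as a cause. Of the members 0 were higher and 14 lower, against 15.5% and 10.0% of all genes. Rpl22, a large-subunit protein known for its need in T cell development, was the farthest below, by 2.07; its cells ran from 0 to 1485 TPM with a median of 211 in pre-pro-B and from 0 to 1334 with a median of 409 in CLP, so the gates overlap; 80.0% and 95.8% of cells had it. Its paralogue Rpl22l1 had medians of 485.7 and 480.1 TPM in these gates and a difference of -0.97. Rpl36a was lower by 1.83, Rpl12 by 1.55 and Rpl34 by 1.45, while Rpl31, a protein at the exit of the peptide tunnel, was higher by 0.81. With log2 of the mean TPM the count of 14 became 5, against 14.9% of all genes, and the medians were -0.54 for members and 0.03 for all genes. With a pseudocount of 10 it became 7, with no share of all genes to set beside it.

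In pDC against CDP of the same run (24 and 58 cells) the members were lower. The median difference was -1.30 for 85 members and -0.46 for 9675 genes; 0 members were higher and 61 lower, against 4.48% and 28.2% of all genes. Rescaling by size factors from 157 genes seen in at least 95% of cells moved all genes by 0.22, and then 32 members were lower against 20.2% of genes, with medians of -0.74 and -0.24; with log2 of the mean TPM 17 members were lower against 31.5% of genes and the medians were -0.64 and -0.25. At 4-fold, 16 members were lower, with no share of all genes to set beside them. The share of TPM was 7.25% in these pDC (SD 2.17) and 11.6% in CDP, a ratio of 0.623. Rpl22l1 was farthest below, at -3.95, and its median was 435 TPM in CDP (lowest 0, highest 2107) and 43.6 in all 27 pDC (lowest 0, highest 550.1). Rps27l, a paralogue of Rps27 induced by p53, was lower by 3.43 and was seen in 93.1% of CDP (exact interval 83.3 to 98.1%) and 55.6% of all 27 pDC (35.3 to 74.5%). Rpl36a was lower by 3.09 and Rps2, which lies at the entry of the mRNA channel, by 2.91. Rpl31 was the highest member, at 0.74, followed by Rpl10 at 0.01. Among 15 other TOP mRNA genes 13 were 2-fold or more lower (median -2.48), as were 42 of 76 mitochondrial ribosomal protein genes (median -1.16). Mitochondrial genes held 9.85% of TPM in these pDC and 8.72% in CDP; their part in the difference was not tested.

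Among pre-DC of the same run the median of the members was a little below 0 and below that of all genes. The share of TPM in SiglecH+Ly6C- cells was 8.24% (SD 2.67) against 9.29% (SD 1.99) in SiglecH-Ly6C- cells. In the other run it was 7.80% (SD 1.93) against 8.91% (SD 2.21) in SiglecH+Ly6C+ cells. SiglecH+Ly6C- against SiglecH-Ly6C- cells (19 and 70 cells) gave a median of -0.05 over 84 members and 0.26 over all genes, with 3 members higher and 2 lower against 17.5% and 4.74% of genes. Rpl22l1 was higher by 2.60, Rpl31 by 1.61 and Rpl7a by 1.202, and Rps2 was lower by 1.997 and Rpl17 by 1.30, or by 0.74 with its copy rows added. SiglecH+Ly6C- against SiglecH+Ly6C+ cells (51 and 45 cells) gave -0.25 over 82 members and 0.20 over all genes, with 3 higher and 0 lower against 10.6% and 4.12%. The 3 were Rps2, higher by 1.89, Rps10, by 1.59, and Rpl13, by 1.59. Rps2 was thus lower in SiglecH+Ly6C- than in the SiglecH-Ly6C- gate and higher than in the SiglecH+Ly6C+ gate.

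SiglecH+Ly6C- pre-DC can be set against themselves, the 51 cells of the run shared with SiglecH+Ly6C+ minus the 19 of the run shared with SiglecH-Ly6C-. This gave a median of -0.18 over 83 members and 0.02 over all genes, with 1 member higher and 6 lower against 5.94% and 7.72%. Rpl22l1 was lower by 1.95 in the first run (means 5.70 and 7.65 on the log2 scale), Rps12 by 1.76, Rpl19 by 1.47 and Rpl7a by 1.25, Rps27l by 1.16 and the pseudogene row Rps4l by 1.10, and Rpl36al was higher by 1.01. Rps4l entered only through the 19 cells, and its call says little. Rpl22l1 and Rpl7a, which stood apart in the comparison with SiglecH-Ly6C- cells, also stood apart between runs of 1 gate. Only the 19 cells entered the former comparison.

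Across runs, cMoP against GMP gave a median of -0.41 over 85 members and -0.00 over all genes, with 2 higher and 16 lower against 19.7% and 22.8%. The share of TPM went the other way, at 9.76% in cMoP and 8.88% in GMP. With log2 of the mean TPM the median was -0.12 for members and 0.27 for all genes. In that setting 7 of 85 members were higher and 9 lower, against 29.9% and 17% of all genes. Without the 5 cMoP over 30% mitochondrial TPM the counts by the mean of log2 were 6 and 9, with no share of all genes to set beside them. Farthest below were Rps19bp1 at -2.64, Rps27l at -2.26, Rps2 at -2.20 and Rpl36al at -1.96. The 2 higher were Rpl5 at 1.09, or 0.75 with its copy rows, and Rps20 at 1.09. LMPP against CLP was the comparison in which the members were higher, with a median of 0.67 over 85 members against -0.25 over all genes; 23 were higher and 4 lower, against 15.2% and 26.7%. The 4 lower were Rpl36al by 3.60, Rps27l by 2.91, Rps19bp1 by 1.62 and Rps2 by 1.05. Rps19bp1 entered only through CLP and its call says little. It was seen in 7 of 65 LMPP and 19 of 48 CLP, with a median of 0 TPM in both. Rpl5 was farthest above, at 1.63, followed by Rpl7a at 1.55 and Rpl24 at 1.54. Of 15 TOP mRNA genes 8 were higher and 1 lower in LMPP, and of 77 mitochondrial ribosomal protein genes 3 were higher and 42 lower. In both comparisons gate and run cannot be told apart.

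**Figure D2:**
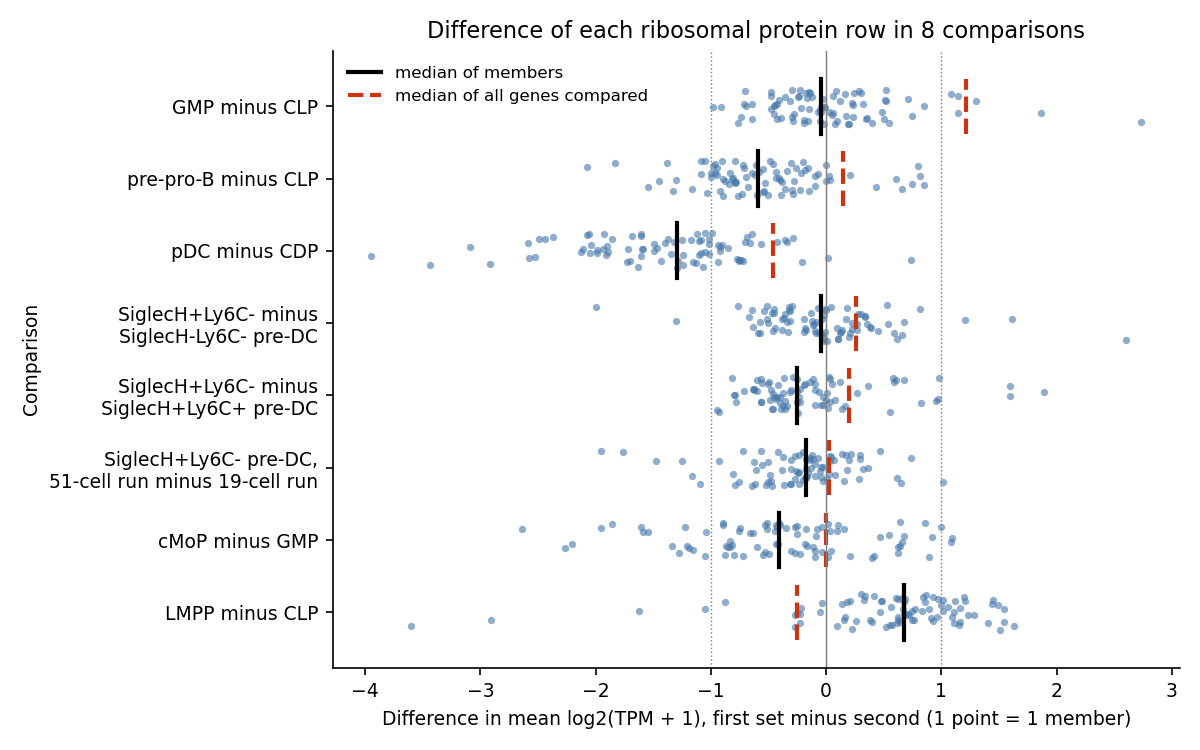
Difference in mean log2(TPM + 1) for each member (points) in 8 comparisons (rows), with the median of the members (black) and of all genes compared (dashed red); dotted lines mark 2-fold. The median of the members is below that of all genes in every comparison but LMPP minus CLP.

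Of 82 members compared in all 8 contrasts, 49 were never 1 or more from the median of the members. Another 10 were 1 or more from it in 3 or more contrasts. The same count was not made for other genes, so it does not set the members apart from them. Rps2 was 1 or more from the member median in 5 of 8, the highest count. Its mean log2 level was 11.12 in GMP (SD 0.499) and 10.96 in CLP (SD 0.819), 9.31 in SiglecH-Ly6C- pre-DC (SD 1.998) and 5.71 in SiglecH+Ly6C+ pre-DC (SD 3.48). No GMP was below 475.9 TPM, whereas 80.0% of SiglecH+Ly6C+ pre-DC had any Rps2 at 1 TPM (exact interval 65.4 to 90.4%). The Rps2 row held 97.7% of the TPM of Rps2 and its 24 copy rows, and its difference between pDC and CDP was -2.82 with the copies added.

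The paralogue rows Rpl36al and Rps27l were high in CLP, GMP and pre-pro-B, the 3 gates that share a run. Mean log2 levels of Rpl36al were 9.77, 10.3 and 10.4 there and 6.17 in LMPP, and in the other 8 gates they lay between 6.20 and 8.34. Rps27l had 9.76, 10.3 and 9.54 there, 6.85 in LMPP, 3.69 in pDC and 3.65 in blood pre-DC. The 3 pDC of another run had 9.71 for Rpl36al and 7.84 for Rps27l, against 6.69 and 3.17 in the 24 pDC of the CDP run. Run and gate cannot be told apart in these rows, and no pseudogene or ribosomal protein row held 20% or more of the 31-base words of either. Rpl22l1 had an SD over cells of 3.67 in SiglecH-Ly6C- pre-DC, where 74.3% of cells had it (exact interval 62.4 to 84.0%), and an SD of 0.825 in GMP.

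**Figure D3:**
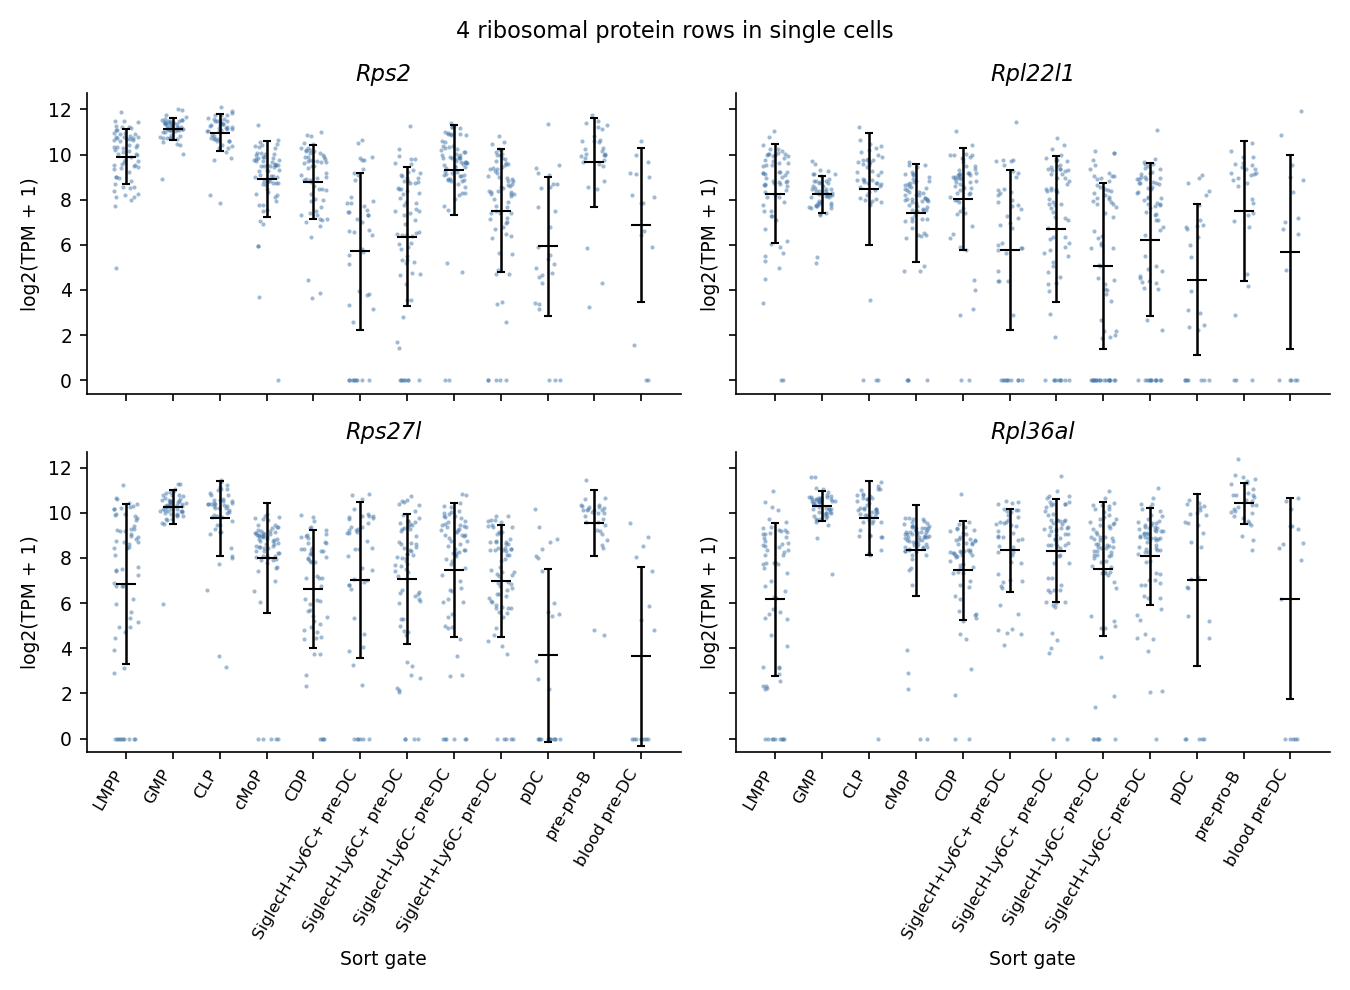
Level as log2(TPM + 1) of Rps2, Rpl22l1, Rps27l and Rpl36al in every cell (points) by sort gate, with the mean and SD over cells (bars). GMP are tight and high in all 4 rows, and the pDC and blood pre-DC points reach from 0 to high levels.

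Pearson's r across the 12 gate means between a member and the median of the others had a median of 0.815 over 83 members. Of these, 43 were above 0.8 and 8 below 0.5. The share of other genes past these values is not given, so the counts do not set the members apart from them. Lowest among the members were Rpl10, a late-joining large-subunit protein, at -0.10, Rpl36al at 0.19, Rps3 at 0.21, Rpl31 at 0.24, and Rpl5 and Rps19bp1 at 0.31. Adding copy rows took Rpl5 to 0.76 and Rpl10 to 0.43, and left Rpl36al at 0.04 and Rpl31 at 0.13. Rpl31 had gate medians of 1093 TPM in pre-pro-B, 922.8 in pDC and 312.95 in SiglecH-Ly6C- pre-DC. Among 8102 other genes the profile most like that of the members was that of Gas5 (r = 0.96 over 12 gates), a small nucleolar RNA host gene with a TOP transcript; it was named after its values were seen.

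In 19 members the own row held under 50% of the TPM summed over it and its copy rows. The Rpl5 row held 4.12% of its sum with 3 copy rows, with Gm15500 at a mean of 1674 TPM over all cells and Rpl5 at 72.1. The Rpl12 row held 3.40%, with most of the rest in Gm10275 (707 TPM against 25.05); Gm10275 and Gm15500 are named because their values were seen. The Rps12 row held 1.90% in blood pre-DC to 12.1% in SiglecH-Ly6C- pre-DC of its family, while the pseudogene row Rps12l1, whose every 31-base word is also in Rps12 or another copy, held 60.6 to 77.2%. The rows of the table are the authors' assignments of reads to near-identical sequences, so these rows are uncertain as levels of a gene. Sums changed several of the differences above: Rpl5 between pDC and CDP went from -0.21 to -1.65, Rps12 between the runs from -1.76 to -0.38, Rps27 in pre-pro-B minus CLP from 0.74 to -0.36, and Rpl27 between SiglecH+Ly6C- and SiglecH+Ly6C+ from 0.98 to 0.08. For Rpl22l1 the sum gave -4.02 in place of -3.95 in pDC minus CDP.

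**Figure D4:**
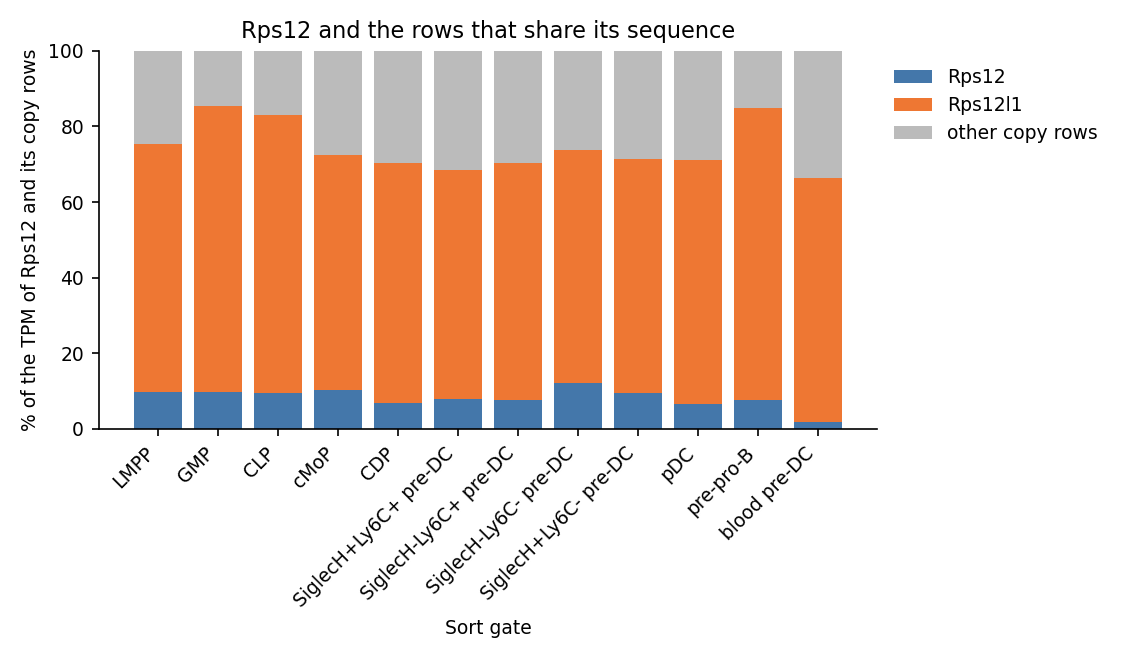
Share of the TPM of Rps12 and the rows that share its sequence (vertical axis, percent) held by Rps12, Rps12l1 and the other copy rows in each gate. Across gates Rps12l1 holds 60.6 to 77.2% and Rps12 holds 1.90 to 12.1%.

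Whether the run differences followed transcript length was asked of SiglecH+Ly6C- pre-DC, the gate with cells in 2 runs. Over 83 members Spearman's rho between the run difference and the longest annotated transcript was -0.08, and over 1061 other genes of like level it was 0.13. The 28 shortest members (383 to 930 nucleotides) had a median run difference of -0.15, the 27 of middle length -0.18 and the 28 longest (1347 to 5179 nucleotides) -0.29; the shortest ran from -1.47 to 0.22 and the longest from -1.95 to 0.62. Rpl36 (383 nucleotides), Rps12l1 (399) and Rpl38, the 3 shortest, had run differences of 0.18, -0.05 and -0.24, and Rps15a (5179), Rps24 (4059) and Rps20 (3706), the 3 longest, had -0.31, -0.30 and -0.24. With copy rows added rho was -0.15 for the longest and -0.20 for the median transcript length. The longest transcript can be a minor form with a retained intron, and with the longest protein-coding transcript rho was 0.02. Over the 8 comparisons rho with the longest annotated transcript ran from -0.23 in pre-pro-B minus CLP to 0.27 in cMoP minus GMP. In the latter it was 0.37 over other genes. With the longest protein-coding transcript it was -0.08 in pre-pro-B minus CLP and 0.34 in cMoP minus GMP. These are correlations across genes, given without a test. Taking each gate's deviation from a member's mean, rho with the longest annotated transcript was -0.34 in pre-pro-B, -0.18 in CLP and -0.17 in GMP, the gates of 1 run, and from -0.12 to 0.20 in the other 9. With GC content in place of length it was 0.29 in pre-pro-B, 0.30 in CLP and 0.31 in GMP, and from -0.40 to 0.20 in the other 9. The parts of length and GC content were not tested. Points of 1 comparison share cells and base composition, and 8 comparisons with 4 properties and 12 gates with 3 were computed in all.

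**Figure D5:**
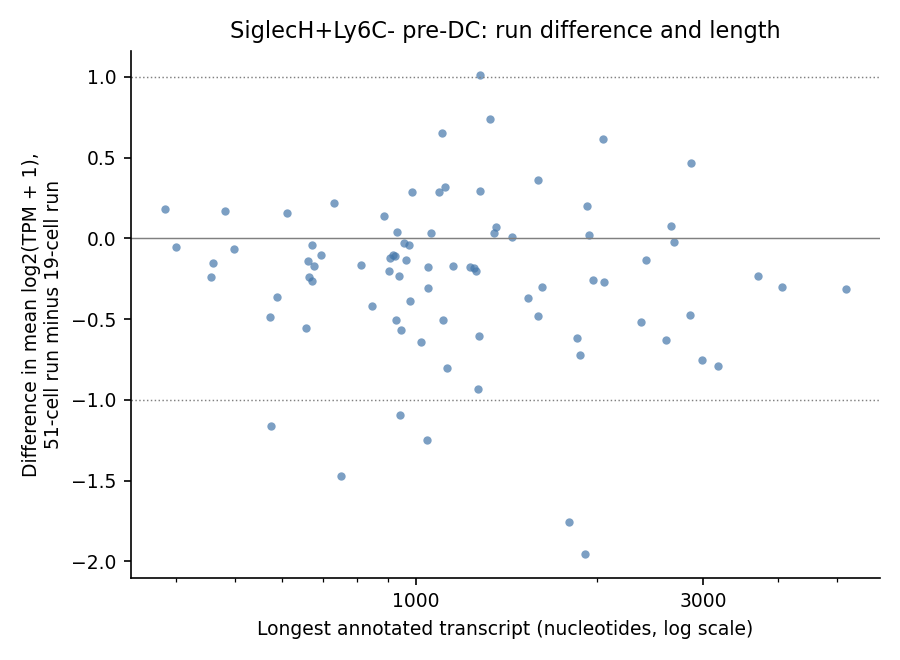
Difference in mean log2(TPM + 1) between the runs of 51 and 19 SiglecH+Ly6C- pre-DC (vertical axis) against the longest annotated transcript on a log scale (nucleotides) for 83 members (points). Short and long members overlap over most of the height, and rho was -0.08.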

How the data were processed

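The authors deposited 1 table of TPM values, made with RSEM 1.2.19 on GRCm38 per the submitters' processing notes; their aligner is not given in the sources used here, nor their annotation. TPM keep no read depth, so counting error per value is unknown. Groups came from the sort labels. The members and gene lists were chosen with earlier results of these data known. Shares were sums of member TPM per cell; differences used a pseudocount of 1 and a filter of 1 TPM in 20% of either set's cells. With 1 sample per gate no test was run. Length and copies came from GENCODE M21 (39469 of 43280 symbols matched, 89 of 90 members) and starts from RefSeq. A copy was a pseudogene or ribosomal protein row holding 20% or more of a member's 31-base words; summing copies, the protein-coding length, GC, start runs, profile likeness of other genes and leaving out cells over 30% mitochondrial TPM were chosen after the data were seen. Genes were named by rule: a list of paralogues and proteins of known roles, the 6 highest and 6 lowest rows seen, the 6 least alike in profile, the 4 farthest from the member median on each side of a comparison, and the 3 longest and 3 shortest; others are said to be named for their values, and some items the rule names are not reported here. Doublets were not called; as a stand-in, values were recomputed after dropping, in each gate, the top 5% of cells by genes seen. Scripts ran in Python 3.11.15 with scipy 1.17.1, pandas 2.3.3, matplotlib 3.10.9 and numpy 2.4.6, and were tested on simulated data. Intervals of shares are exact (Clopper-Pearson, 95%) and cover counting error only.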

Additional observations from a re-analysis of the deposited data

How the results depend on the processing

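Among the values recomputed under an alternative, 323 moved by less than the spread over cells or stayed within 1.5 times the count, and 47 moved; the cause of a move was not tested. In 3 the sign changed: the member median of GMP minus CLP was -0.04, 0.06 with size factors and 0.00053 without the 5% of cells with the most genes, and the rho of the run difference with length went from -0.08 to 0.017 with the longest protein-coding transcript. LMPP and CDP had the highest shares in every setting, and pDC the lowest except with all copy rows, where pre-pro-B did. With the 248 copy rows added, the share was 19.9% in LMPP, 15.2% in CDP, 12.96% in SiglecH-Ly6C+, 12.6% in cMoP, 11.8% in SiglecH-Ly6C-, 11.7% in SiglecH+Ly6C+ and 10.3% in SiglecH+Ly6C- pre-DC, and 9.68% in pDC.

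Counts of members 2-fold or more apart moved as follows. Shares of all genes are given above for size factors in pDC minus CDP. For log2 of the mean TPM they are given above in GMP minus CLP, pre-pro-B minus CLP, pDC minus CDP and cMoP minus GMP. All other counts here, and those at 4-fold, have no such share beside them, so they do not tell the members from other genes. With a pseudocount of 0.1 there were 1 lower in GMP minus CLP, 3 higher in pre-pro-B minus CLP, 5 higher and 2 lower in SiglecH+Ly6C- minus SiglecH+Ly6C+, and 4 higher in cMoP minus GMP. With a pseudocount of 10 there were 1 higher in GMP minus CLP, 7 lower in pre-pro-B minus CLP, 0 higher and 3 lower between the runs, and 1 higher in cMoP minus GMP. With log2 of the mean TPM there were 0 higher in GMP minus CLP, 5 lower in pre-pro-B minus CLP, 1 higher and 17 lower in pDC minus CDP, 1 higher and 4 lower in SiglecH+Ly6C- minus SiglecH-Ly6C-, 1 lower between the runs, and 7 higher and 9 lower in cMoP minus GMP. Size factors gave 1 higher and 32 lower in pDC minus CDP. Without the 5% of cells with the most genes 5 were higher in SiglecH+Ly6C- minus SiglecH+Ly6C+, and without cells over 30% mitochondrial TPM 6 were higher and 9 lower in cMoP minus GMP. Summed with copies, 1 was lower in SiglecH+Ly6C- minus SiglecH-Ly6C- and 10 in cMoP minus GMP. At 4-fold the counts were 1 higher in GMP minus CLP, 1 lower in pre-pro-B minus CLP, 16 lower in pDC minus CDP, 1 higher and 0 lower in SiglecH+Ly6C- minus SiglecH-Ly6C-, 0 higher in SiglecH+Ly6C- minus SiglecH+Ly6C+, 0 in both directions between the runs, 0 higher and 3 lower in cMoP minus GMP, and 0 higher and 2 lower in LMPP minus CLP. No paired analysis was possible because the labels tie no cells of different gates together.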
